A study of Mus musculus with 6 samples.

Results

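This account concerns 10 genes of the promyelocyte, the granulocyte precursor in which the first (primary) granules form, followed in mouse bone marrow cells sorted as haematopoietic stem cells (HSCs). They were taken from the 49585 genes of the count tables by the Ensembl identifiers of their symbols, and all 10 were found once. They are 4 granule enzymes (Mpo, Elane, Prtn3 and Ctsg), the membrane protein gene Ms4a3, 3 transcription factors (Cebpa, Cebpe and Gfi1), the chaperone gene Calr and the receptor gene Csf3r. Both groups came from untreated C57BL/6 mice 8 to 16 weeks old, with no transgene or deletion named. Cells were sorted as lineage-negative, Kit+, Sca-1+, CD48-, CD150+, CD34- and CD201+, and then split by surface CD38 into a CD38-positive (CD38hi) and a CD38-negative (CD38lo) group. CD38 is a membrane enzyme that breaks down NAD. Each group has 3 bulk RNA-seq libraries, each from the HSCs of 10 mice, and the series matches them as 3 pairs of 1 library per group. Whether paired libraries share their mice is not stated.

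Granulocytes arise from stem cells by way of myeloid progenitors, myeloblasts and promyelocytes. The primary, or azurophil, granules are filled at the promyelocyte stage with myeloperoxidase and a set of serine proteases. The transcription of these genes is then switched off, and the genes of the secondary granules follow in myelocytes. The transcription factor C/EBP alpha acts early in this lineage, C/EBP epsilon acts at the passage to secondary granules, and GFI1 represses monocytic genes. Mpo and Elane transcripts are classical marks of granulocyte-monocyte progenitors rather than of HSCs.

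The libraries held 16771180 to 18558610 counts each, so that 3 counts correspond to at most 0.179 CPM (the usual unit of read counts scaled to library size), and all 10 genes passed the filter on low counts. HSC genes were present, with 12 of 12 listed genes tested and a summed level between 799 and 2230 CPM. So were transcripts of lineages that the sort was set to remove. The summed level of 20 late neutrophil genes was 68626 to 163035 CPM in CD38-positive and 79189 to 128004 CPM in CD38-negative libraries, and that of 9 erythroid genes was 4680 to 12184 and 6940 to 10415 CPM. These are bulk samples, so more cells of a type and more RNA per cell cannot be told apart.

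The promoters of the 4 granule enzyme genes are shown. Of these genes Mpo, Elane and Prtn3 moved together over the libraries, and Ctsg followed them less closely (below). The windows run from 250 bases before to 50 bases after the RefSeq start site (GRCm38.p6) and are written 5′ to 3′ on the strand of the gene. Capitals mark matches on either strand to GAGGAA, a core of PU.1-type sites, and to TAACNG, a MYB-type site.
Mpo, chr11:87793534-87793833, plus strand: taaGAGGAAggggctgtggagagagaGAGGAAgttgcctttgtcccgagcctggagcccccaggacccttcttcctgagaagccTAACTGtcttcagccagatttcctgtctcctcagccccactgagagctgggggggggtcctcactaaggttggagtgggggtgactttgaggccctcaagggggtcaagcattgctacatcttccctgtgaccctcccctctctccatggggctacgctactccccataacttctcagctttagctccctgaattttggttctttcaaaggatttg
Elane, chr10:79886062-79886361, plus strand: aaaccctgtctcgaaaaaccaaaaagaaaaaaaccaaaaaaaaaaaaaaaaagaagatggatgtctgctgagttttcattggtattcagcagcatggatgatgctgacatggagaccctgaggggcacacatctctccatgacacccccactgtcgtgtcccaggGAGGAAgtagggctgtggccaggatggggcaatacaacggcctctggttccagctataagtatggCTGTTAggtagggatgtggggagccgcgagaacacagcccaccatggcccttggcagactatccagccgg
Prtn3, chr10:79879417-79879716, plus strand: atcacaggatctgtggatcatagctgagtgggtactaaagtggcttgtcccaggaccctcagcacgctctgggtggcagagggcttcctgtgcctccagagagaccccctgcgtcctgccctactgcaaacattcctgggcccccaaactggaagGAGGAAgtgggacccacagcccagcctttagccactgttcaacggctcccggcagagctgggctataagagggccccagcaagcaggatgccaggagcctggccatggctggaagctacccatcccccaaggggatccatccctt
Ctsg, chr14:56102525-56102824, minus strand: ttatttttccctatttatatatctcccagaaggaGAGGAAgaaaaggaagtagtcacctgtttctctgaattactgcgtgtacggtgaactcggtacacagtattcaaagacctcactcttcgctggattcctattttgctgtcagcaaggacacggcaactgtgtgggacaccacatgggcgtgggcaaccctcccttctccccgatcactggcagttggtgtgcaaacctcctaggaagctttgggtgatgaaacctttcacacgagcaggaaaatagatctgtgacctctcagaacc
GAGGAA was present in all 4 windows, and in 28.3% of the 32851 RefSeq promoter windows of the same length. It lay 85 bases before the start site of Elane and 95 bases before that of Prtn3, counted from its first base, and farther upstream in Mpo and Ctsg. TAACNG was present in the windows of Mpo and Elane, and in 23.3% of all windows. A C/EBP-type site, searched as TTNNGNAA on both strands, was in none of the 4 windows and in 40.7% of all windows. Among the windows of the other members TTNNGNAA was found for Ms4a3, with 2 matches, and for Gfi1. A match is a string of letters and no evidence of binding, and the absence of a match says nothing about the factor. Windows were matched for 9 of the 10 genes, all but Cebpe.

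Myeloperoxidase transcripts were among the most abundant in every library. Mpo (ENSMUSG00000009350, chr11:87793581-87804413, plus strand, GRCm38) encodes the haem enzyme that makes hypochlorous acid in neutrophils. It was at 11006, 7509 and 5801 CPM in the CD38-positive libraries of pairs 1, 2 and 3, and at 6708, 6179 and 8178 CPM in their CD38-negative partners. The highest and the lowest library were both CD38-positive, so the groups overlapped. By raw count Mpo ranked between 5 and 10 among all genes of a library, and it alone took 0.613% to 0.989% of all counts.

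Elane (ENSMUSG00000020125, chr10:79886247-79888215, plus strand) encodes neutrophil elastase, a serine protease. Its level was 2522, 1781 and 1563 CPM in CD38-positive and 1714, 1466 and 2182 CPM in CD38-negative libraries of pairs 1, 2 and 3. The order of the libraries within each pair was that of Mpo. Prtn3 (ENSMUSG00000057729, chr10:79874476-79883174, plus strand), which encodes proteinase 3, lies immediately before Elane, with 3072 bases and no annotated gene between them. It was at 957, 698 and 557 CPM in CD38-positive and at 679, 568 and 668 CPM in CD38-negative libraries, and again the groups overlapped.

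Ctsg (ENSMUSG00000040314, chr14:56099881-56102574, minus strand) encodes cathepsin G, a protease of the same granules made also by mast cells. Its levels were 1173, 463 and 393 CPM in CD38-positive and 619, 502 and 682 CPM in CD38-negative libraries. CD38-positive replicate 1 stood above the other 5 libraries, and the highest level was 2.99 times the lowest, the widest range of the 10 genes. Ms4a3 (ENSMUSG00000024681, chr19:11629496-11640851, minus strand), a four-span membrane protein used to trace granulocyte-monocyte progenitors, followed the same order. It was at 542, 245 and 244 CPM in CD38-positive and 352, 249 and 423 CPM in CD38-negative libraries.

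**Figure D1:**
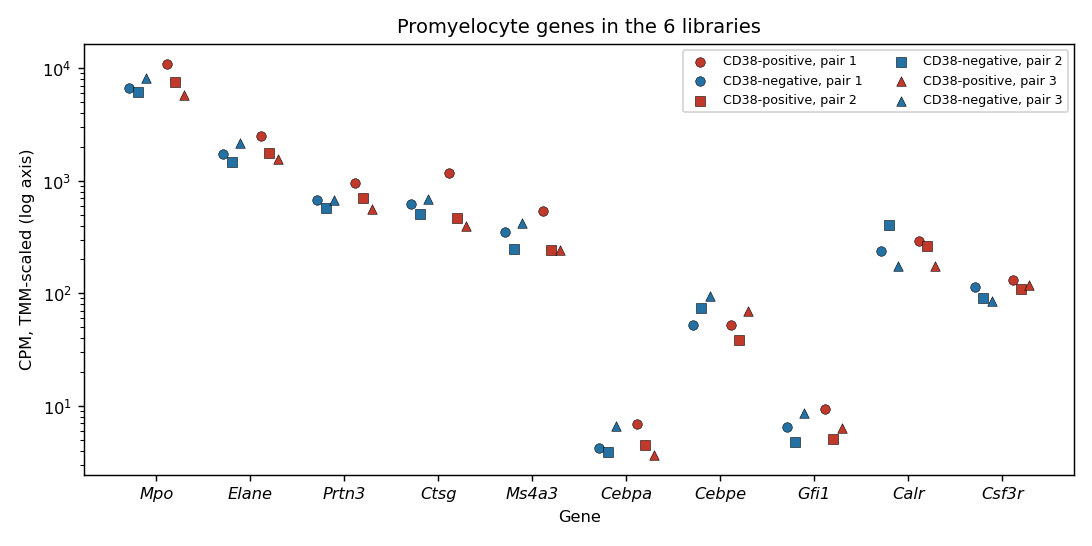
TMM-scaled CPM of the 10 genes (log axis) in the 6 libraries, with CD38-negative libraries in blue to the left and CD38-positive libraries in red to the right, and 1 marker shape per pair. The groups overlap for every gene; Mpo runs from 5801 to 11006 CPM and Cebpa from 3.64 to 6.83 CPM.

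The transcription factors of the lineage were far lower and did not all follow the enzymes. Cebpa (ENSMUSG00000034957, chr7:35119293-35121928, plus strand) was at 6.83, 4.53 and 3.64 CPM in CD38-positive and at 4.23, 3.89 and 6.66 CPM in CD38-negative libraries, from 66 to 114 reads each. Gfi1 (ENSMUSG00000029275, chr5:107716657-107726036, minus strand) was at 9.35, 5.04 and 6.40 CPM and at 6.49, 4.73 and 8.62 CPM. Both were higher in the CD38-positive library in pairs 1 and 2 and lower in pair 3, as Mpo was.

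Cebpe (ENSMUSG00000052435, chr14:54710360-54712174, minus strand) had a different order. It was at 52.2, 38.2 and 69.7 CPM in CD38-positive and at 52.5, 73.9 and 93.9 CPM in CD38-negative libraries. The 2 libraries in which Mpo was highest among CD38-positive cells were those with the 2 lowest CD38-positive Cebpe levels. The CD38-negative library was the higher one in pairs 2 and 3, and the libraries of pair 1 were nearly equal.

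Calr and Csf3r differed from the enzymes too. Calr (ENSMUSG00000003814, chr8:84841850-84846934, minus strand) encodes calreticulin, an endoplasmic reticulum chaperone that binds newly made myeloperoxidase and is expressed in most cells. It was at 293, 265 and 174 CPM in CD38-positive and at 240, 401 and 175 CPM in CD38-negative libraries, with CD38-negative replicate 2 above the rest. Csf3r (ENSMUSG00000028859, chr4:126024550-126044440, plus strand) encodes the receptor for granulocyte colony-stimulating factor, which is present from progenitors to mature neutrophils. It was at 131, 109 and 118 CPM in CD38-positive and at 115, 90.5 and 84.9 CPM in CD38-negative libraries. Csf3r had the narrowest range of the 10 genes, at 1.54 times from lowest to highest.

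Per kilobase of exon, which allows genes to be compared with each other, Mpo (mean 2209 RPKM over 6 libraries, CPM divided by the exon length in kilobases) and Elane (1902) led, and their ranges over the libraries overlapped. Ctsg (618) and Prtn3 (397) came next and overlapped each other, but neither reached the lowest Elane value of 1490 RPKM. Ms4a3 (182), Calr (89.5), Cebpe (51.1) and Csf3r (29.9) followed, and each overlapped the next in the order. Gfi1 (2.12) and Cebpa (1.88) were the lowest, overlapped each other and stood apart from the rest. Exon lengths were those of all annotated exons merged, which lowers RPKM for a gene with long rare exons.

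To ask whether the promyelocyte genes differ with surface CD38, all 14785 tested genes were fitted in 1 model of pair and population (edgeR quasi-likelihood test, Benjamini-Hochberg adjustment). None of the 10 genes passed an adjusted p-value of 0.05, which 0.0135% of tested genes did. The adjusted p-values ran from 0.926 to 1. At an unadjusted p-value under 0.05 there was 1 of the 10, Cebpe, against 5.08% of tested genes. The groups overlapped for all 10, while 6.53% of tested genes had groups that did not overlap. The fitted log2 fold changes of CD38-positive over CD38-negative ran from -0.46 to 0.31 with a median of 0.04, beside a median of 0.00 over all tested genes, and 6 were above 0, 3 below, and that of Ctsg 0.00.

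Mpo averaged 8105 ± 2653 CPM (SD, n = 3) over the CD38-positive libraries and 7022 ± 1036 CPM (SD, n = 3) over the CD38-negative ones, a fitted log2 fold change of 0.17 with an SE of 0.26 (adjusted p = 0.957 in edgeR). Elane had 0.12 (SE 0.24) and Prtn3 0.18 (SE 0.21). For Ctsg the 3 pair differences averaged 0.00 with an SD of 0.87, and Ms4a3 had a log2 fold change of -0.06 (SE 0.25). Cebpa and Gfi1 were at 0.02 (SE 0.36) and 0.06 (SE 0.30), and Calr at -0.10 (SE 0.21). A p-value above the threshold does not show that the levels were equal, and each of these errors is larger than its fold change.

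Cebpe and Csf3r were the genes of the 10 with the same sign in all 3 pairs, as were 24.5% of tested genes. Cebpe averaged 53.4 ± 15.8 CPM (SD, n = 3) over the CD38-positive libraries and 73.4 ± 20.7 CPM (SD, n = 3) over the CD38-negative ones. The fit gave -0.46 on the log2 scale (SE 0.22, unadjusted p = 0.049, adjusted p = 0.926 in edgeR), and the pair differences were -0.01, -0.95 and -0.43. Without the replicate block the unadjusted p-value of Cebpe in edgeR was 0.12. Csf3r averaged 119 ± 10.8 CPM (SD, n = 3) and 96.7 ± 15.8 CPM (SD, n = 3). The fit gave 0.31 (SE 0.18, adjusted p = 0.926 in edgeR), with pair differences of 0.19, 0.27 and 0.47.

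The pairs went different ways. In pair 1, 9 of the 10 genes were higher in the CD38-positive library, with a median log2 difference of 0.54. In pair 2, 6 were higher, with a median of 0.15. In pair 3, 9 were lower and only Csf3r was higher, with a median of -0.46. The medians over all tested genes were 0.00, -0.02 and 0.03 in the same pairs. Mpo differed by 0.71, 0.28 and -0.50, Elane by 0.56, 0.28 and -0.48, Prtn3 by 0.50, 0.30 and -0.26, and Ctsg by 0.92, -0.12 and -0.80. Ms4a3 differed by 0.62, -0.02 and -0.79, Cebpa by 0.68, 0.21 and -0.85 and Gfi1 by 0.52, 0.09 and -0.42. With 1 library per population in a pair, a difference between pairs could not be tested. Without pair 1 the median of the 10 fitted values was -0.24, and without pair 3 it was 0.355, so its sign rested on the pairs included.

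**Figure D2:**
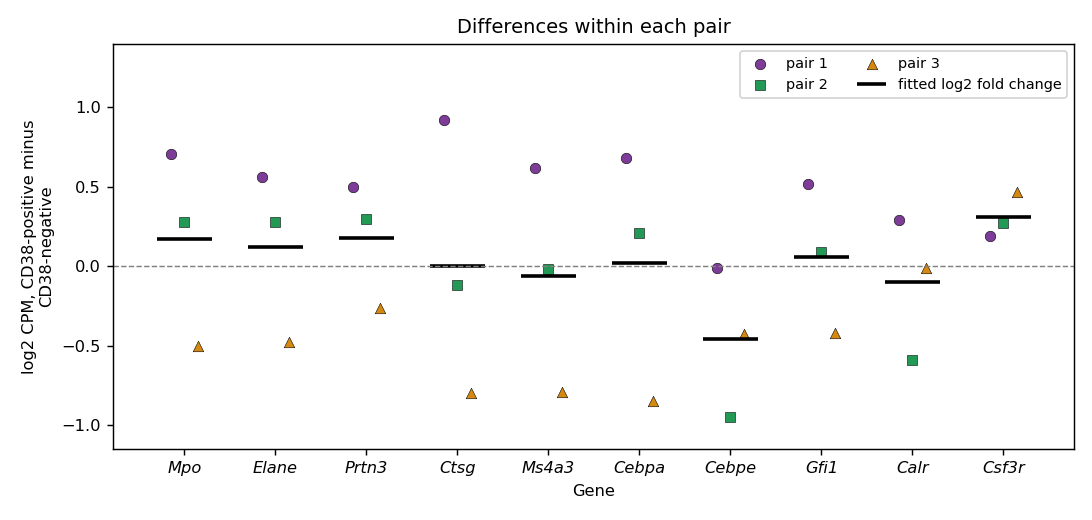
Difference in log2 CPM (prior count 2) between the CD38-positive and the CD38-negative library of each pair for the 10 genes; markers are pairs and black bars the fitted log2 fold change. The 4 enzymes, Ms4a3, Cebpa and Gfi1 are above 0 in pair 1 and below 0 in pair 3, while Cebpe is below and Csf3r above 0 in all 3 pairs.

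Together the 10 genes took 1.50%, 1.14% and 0.944% of all counts in CD38-positive replicates 1, 2 and 3, and 1.03%, 1.02% and 1.20% in their CD38-negative partners. The means were 1.20% ± 0.282 (SD, n = 3) and 1.09% ± 0.102 (SD, n = 3). The 95% Wilson interval of a single library reached at most 0.0055 percentage points to either side, which covers counting error only. Mpo made up 64.0% to 67.5% of the reads of the 10 genes in every library.

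Elane and Prtn3 kept closer to a fixed proportion of Mpo than the Mpo level kept between libraries, and Ctsg did so less. Per 100 Mpo reads of the same library there were 22.9 to 26.9 Elane reads, a range of 1.18 times, against a 1.90-fold range of the Mpo level itself. For Prtn3 there were 8.17 to 10.1 reads per 100 Mpo reads, a range of 1.24 times. Prss57, which encodes a further serine protease of the azurophil granule, had 1.23 to 1.59, a range of 1.29 times. Cebpa had 0.0603 to 0.0815, a range of 1.35 times.

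Other genes kept their proportion to Mpo less closely. Ctsg had 6.16 to 10.7 reads per 100 Mpo reads (1.73 times), with the highest value in CD38-positive replicate 1. Ms4a3 ranged 1.61 times, Gfi1 1.64 times and Csf3r 1.95 times. The widest ranges among the members were those of Cebpe, at 0.474 to 1.20 reads (2.53 times), and Calr, at 2.14 to 6.48 reads (3.03 times). Among secondary granule and later genes, Ltf (lactoferrin) ranged 1.51 times, S100a8 2.10 times and Camp (cathelicidin) 2.32 times. These ratios describe the 6 libraries and were not tested.

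**Figure D3:**
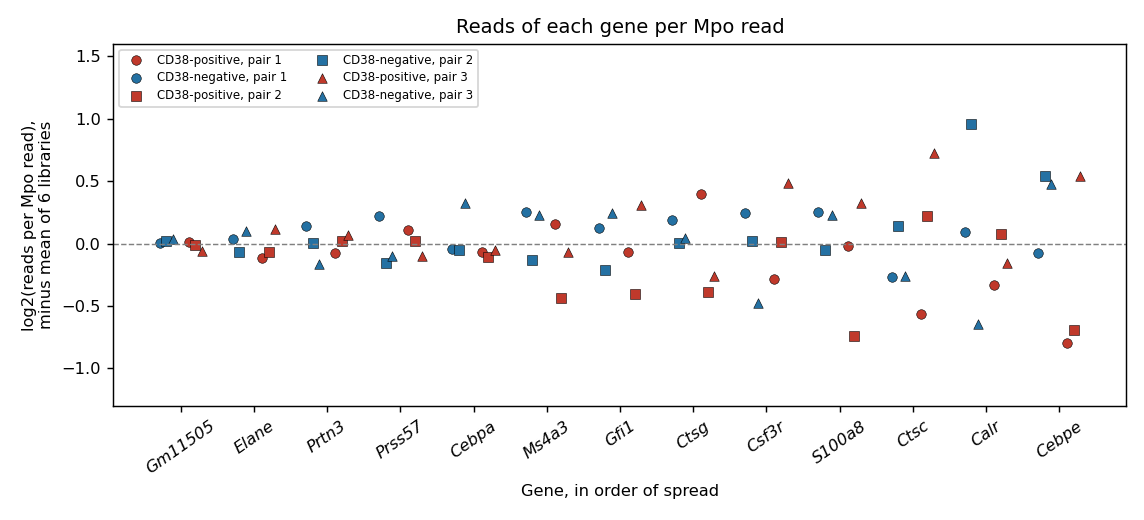
Log2 of the reads of each gene per Mpo read, centred on the mean of the 6 libraries, for genes ordered by their spread; red is CD38-positive, blue CD38-negative and the marker shape the pair. Gm11505, Elane, Prtn3 and Prss57 lie closest to 0, and Calr and Cebpe spread most.

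Among the genes compared with Mpo, the closest to a fixed proportion was Gm11505 (ENSMUSG00000085872, chr11:87795784-87801144, minus strand), an antisense gene annotated within Mpo. Of its 737 exon bases, 512 are also exon bases of Mpo on the other strand. Its counts were 57585, 41152 and 31430 in the CD38-positive and 35264, 35091 and 42660 in the CD38-negative libraries of pairs 1, 2 and 3. That is 29.9 to 31.9 reads per 100 Mpo reads, a range of 1.07 times. Whether the counting used strand is not given in the sources used here, so reads of Mpo and of Gm11505 cannot be told apart with certainty. By how much this affects the level of Mpo was not tested. Prtn3 shares 159 exon bases with Plppr3, a gene of the minus strand at 41.9 to 99.2 CPM. Overlaps of Cebpa and Gfi1 with antisense or non-coding genes held 8 and 60 reads over the 6 libraries.

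The 8 genes whose log2 CPM followed the mean standardised pattern of the 4 enzymes most closely over the 6 libraries were chosen by their Pearson correlation and are given as a description. They were Gm11505 (r = 0.985), Prss57 (0.968), Gm26617 (0.965), Gm26964 (0.964), Ppp2r5a (0.964), Fcgr2b (0.962), Scrg1 (0.957) and Adgrg3 (0.952). Mpo is part of the pattern, and reads of Mpo and Gm11505 cannot be told apart with certainty. The value for Gm11505 may therefore not be independent of the pattern. With 6 libraries high values arise easily, and 54 of 14775 genes (0.365%) had r above 0.9. Prss57 was at 162, 104 and 73.9 CPM in CD38-positive and 106, 75.8 and 104 CPM in CD38-negative libraries. Fcgr2b encodes an inhibitory receptor for IgG, and was at 35.7 to 77.4 CPM. Adgrg3, an adhesion G protein-coupled receptor of granulocytes, was at 83.8 to 173 CPM, and Gm26964 was at 0.667 to 1.26 CPM, close to the floor. Of the other members, Ms4a3 had r = 0.91, Cebpa 0.90, Gfi1 0.78, Csf3r 0.35, Calr 0.07 and Cebpe -0.19.

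Genes that process, package or inhibit the granule enzymes were examined as a list of 12. Of these 11 were tested, 0 passed in either direction, 1 had an unadjusted p-value under 0.05 (5.08% of tested genes did), and the median log2 fold change was 0.19. The 1 gene was Ctsc, which encodes the dipeptidyl peptidase that activates the granule serine proteases. Ctsc averaged 321 CPM with high and 239 CPM with low surface CD38, a log2 difference of 0.42 in the fit (SE 0.19, adjusted p = 0.926 in edgeR), with pair differences of 0.42, 0.36 and 0.49. It was higher in the CD38-positive library in pair 3 as well, where the 4 enzymes were lower, with 6.18 reads per 100 Mpo reads in CD38-positive replicate 3 against 2.52 in replicate 1. Srgn (serglycin, the granule proteoglycan) had -0.25 (SE 0.25), with pair differences of 0.52, -0.83 and -0.42. Lyz2 (lysozyme) was the most abundant of the list, with means of 10716 and 8584 CPM. Bpi had too few counts for a test, at 0 to 0.276 CPM.

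Of 15 further chaperones of the endoplasmic reticulum, 0 passed and 0 had an unadjusted p-value under 0.05. Their median log2 fold change was 0.17, with pair medians of 0.07, 0.47 and 0.00. All but Hyou1 had a fitted value above 0, whereas Calr had -0.10. In pair 2 Calr differed by -0.59, while P4hb (a protein disulphide isomerase) differed by 1.05 and Hsp90b1 by 0.74. Hyou1 was further below 0 than Calr in that pair, at -1.21. Canx (calnexin, the membrane-bound relative of calreticulin) had 0.03 in the fit and -0.03 in pair 2.

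Of 14 other transcription factors of myeloid development, 0 passed, and 2 had an unadjusted p-value under 0.05, against 5.08% of tested genes. Among these was Irf8, a factor of the monocyte and dendritic branch. Irf8 averaged 178 and 97.3 CPM, a fitted log2 difference of 0.87 (SE 0.22, adjusted p = 0.695 in edgeR), with pair differences of 0.32, 1.42 and 0.87. Spi1, which encodes PU.1, had 0.06 in the fit, with -0.17, -0.43 and 0.78 in the pairs, and its likeness to the enzyme pattern was negative (r = -0.81). Over the 14 factors r ran from -0.92 for Gata2 to 0.80 for Myb. Of 12 cytokine receptor and signalling genes 0 passed and 1 had an unadjusted p-value under 0.05 (5.08% of tested genes did). It was Csf1r, the receptor of macrophage colony-stimulating factor, with 0.68 (SE 0.21, adjusted p = 0.893 in edgeR).

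Marker lists of other cell types are given beside the enzymes, and their part in the differences within pairs was not tested. The summed level of the 4 enzymes was 15659, 10451 and 8314 CPM in CD38-positive replicates 1, 2 and 3 and 9720, 8714 and 11710 CPM in their CD38-negative partners. The late neutrophil sum was 163035, 68626 and 94556 CPM and 118652, 79189 and 128004 CPM in the same order. It was therefore higher in the CD38-positive library in pair 1 and lower in pair 3, as the enzymes were. In pair 2 it was lower, where the enzyme sum was higher but Ctsg differed by -0.12. The late neutrophil genes were split in pair 2, with a median log2 difference of -0.01. There S100a8 and Ngp, which weigh heavily in the sum, differed by -0.41 and -0.29, and Ltf and Lcn2 by 0.25 and 0.46. Over the 20 late neutrophil genes the median fitted value was 0.13, 0 passed, and 2 (Mmp9 and Mmp8) had an unadjusted p-value under 0.05, against 5.08% of tested genes. Late neutrophil reads were 6.57 to 12.2 times as many as the reads of the 4 enzymes, with the lowest ratio in CD38-positive replicate 2.

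The sums of several other lists were also highest in CD38-positive replicate 1. Monocyte and dendritic genes summed to 2858 CPM in CD38-positive replicate 1 and to 1243 to 1583 CPM in the other 5 libraries. Basophil, mast cell and eosinophil genes summed to 2117 CPM in CD38-positive replicate 1 and to 1020 to 1574 CPM elsewhere. Prg2 alone made up 1173 of those 2117 CPM. Prss34, Mcpt8 and Cpa3 were highest in CD38-negative replicate 3, at 461, 161 and 222 CPM. In CD38-positive replicate 1 they were at 308, 144 and 199 CPM. Gata2 was highest in CD38-negative replicate 2, and the remaining genes of this list in CD38-positive replicate 1. T and NK cell genes summed to 342 CPM there and to 146 to 300 CPM in the others, but Nkg7, which is also in the list of granule genes, made up 314 of the 342 CPM. Without Nkg7 the other 7 genes summed to 23.2 to 29.1 CPM, with 27.9 CPM in CD38-positive replicate 1, and Cd3e was at 0 in 4 of the 6 libraries. B and plasma cell genes were at 367 to 1099 CPM in CD38-positive and 1224 to 2863 CPM in CD38-negative libraries. Ighm, Igkc and Jchain carried this order, and the other 8 genes summed to 217 CPM in CD38-positive replicate 1 and to 109 to 192 CPM elsewhere. Among those 8, Pax5 had r = 0.82 and Mzb1 0.73 with the enzyme pattern. Unadjusted p-values under 0.05 in edgeR were found for 4 of 11 B and plasma cell genes and 2 of 10 monocyte and dendritic genes. For the basophil, mast cell and eosinophil list and the T and NK list the number was 0, against 5.08% of tested genes. In these lists 0 genes passed.

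HSC genes took the opposite order to the enzymes in part. Their summed level was lowest in CD38-positive replicate 1, at 799 CPM, where the enzymes were highest. It was 1015 and 1677 CPM in CD38-positive replicates 2 and 3, and 1018, 2230 and 1455 CPM in CD38-negative replicates 1, 2 and 3. In every library the 4 enzymes summed to more CPM than the 12 HSC genes. Of those 12 genes 0 passed, and 6 had an unadjusted p-value under 0.05 in edgeR, against 5.08% of tested genes. Their median log2 fold change was -0.29, with 4 above 0 and 8 below. The genes Meis1 and Mecom had r of -0.76 and -0.75 with the enzyme pattern, as a description over 6 libraries that share their scaling. Multipotent progenitor genes (5 listed) were at 639 to 946 CPM, and Cd34, whose protein the sort excluded, was at a mean of 242 CPM.

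**Figure D4:**
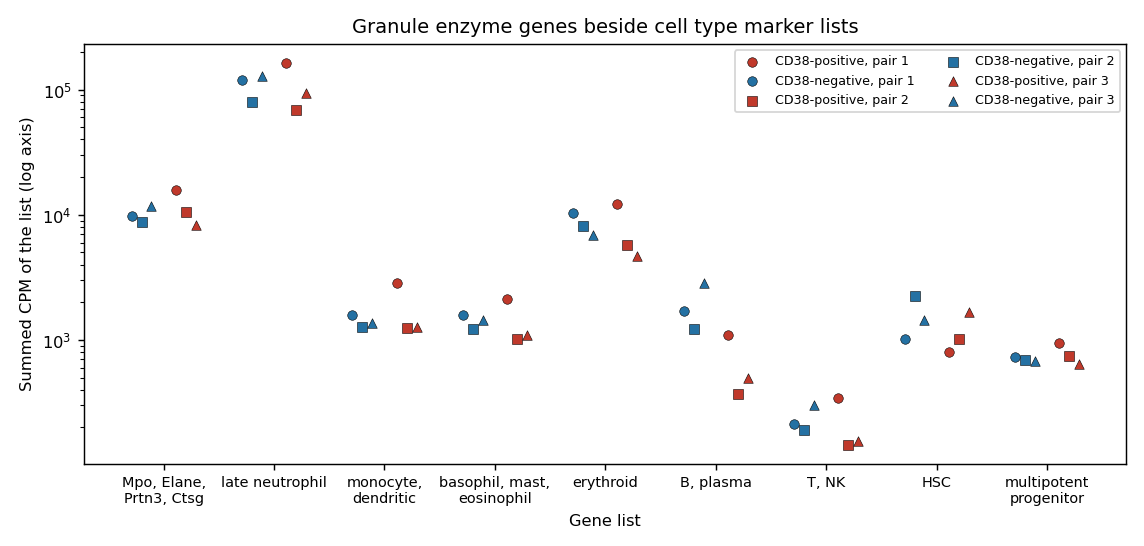
Summed TMM-scaled CPM (log axis) of the 4 granule enzyme genes and of 8 marker lists in each library; colours are the groups and marker shapes the pairs. Late neutrophil genes lie above the enzymes in every library, and CD38-positive replicate 1 (red circle) has the highest enzyme sum and the lowest HSC sum.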

How the data were processed

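For each of the 6 libraries the authors deposited raw counts of reads by Ensembl gene. Per the submitters' processing notes, cutadapt, STAR and HTSeq 0.6.1p1 were used and the build was GRCm38 (mm10). The strand setting and the annotation release are not given in the sources used here. Gene symbols matched 49326 of 49585 identifiers. Positions and exon lengths came from GENCODE M21 (GRCm38), promoters from RefSeq (GRCm38.p6).

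In R 4.3.3, genes were kept with filterByExpr, which left 14785, and scaled by TMM. The edgeR 4.0.16 quasi-likelihood functions estimateDisp, glmQLFit and glmQLFTest were run with terms for pair and population, and p-values adjusted by Benjamini-Hochberg over all genes. The pair was kept as a block because the series states the comparison by pairs; deviations of paired libraries from their group means correlated at 0.34, 0.12 and 0.24. The SE is the fold change over the root of quasi-F. CPM used TMM-adjusted totals. On simulated data, 55 of 100 genes changed 2-fold and 94 of 100 changed 4-fold were called, with 6 unchanged genes called among 14496 genes.

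The 10 genes, the gene lists and the motifs were chosen with earlier results of these data known. From each list were named the most abundant gene and the 2 with the smallest p-values in each direction, where they bear on the text and are reported here; Spi1, Canx, Bpi, Mmp8, Mecom, Cd3e, Cd34 and the genes compared with Mpo were chosen after their values were seen. In the fit with the block, a p-value sets the mean difference between the populations against its variation from pair to pair. The estimate of that variation also draws on the other tested genes. Each library is a pool of 10 mice, so the spread between single mice was not measured. Alternatives were the fit without the block, DESeq2 1.42.0, limma-voom (limma 3.58.1), DESeq2 size factors, unscaled totals, no filter, a mean of at least 10 counts, scaling without late neutrophil genes, and leaving out each pair. Sums of 2 marker lists without the genes that carry them were added after seeing the data.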

Additional observations from a re-analysis of the deposited data

How the results depend on the processing

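Under 11 alternatives, 110 fold changes of the 10 genes were computed, and 0 passed an adjusted p-value of 0.05 (smallest 0.568). The sign changed in 9 of them, 7 of these on leaving out a pair, apart from Ctsg, whose fold change of 0.00 moved to either side. Without the replicate block Ms4a3 had a log2 fold change of 0.011, and with unscaled totals Ctsg had -0.019 and Cebpa -0.003; the cause was not tested. Leaving out a pair gave -0.11 to 0.50 for Mpo, -0.10 to 0.42 for Elane, -0.46 to 0.40 for Ctsg, -0.41 to 0.30 for Ms4a3, -0.33 to 0.46 for Cebpa, -0.17 to 0.31 for Gfi1 and -0.30 to 0.13 for Calr. Prtn3, Cebpe and Csf3r kept their sign, at 0.02 to 0.40, -0.69 to -0.23 and 0.23 to 0.37. The median of the 10 genes ran from -0.24 to 0.355. Their summed share, 0.11 percentage points higher in CD38-positive libraries, ran from -0.0696 to 0.295.

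The number of genes called among all tested, 2 in edgeR with the block, was 0 without the replicate block (417 at an unadjusted p under 0.05), 0 with unscaled totals (595), 11 with DESeq2, 7 with DESeq2 size factors, 80 with no filter, 13 with a mean of at least 10 counts, and 2 to 41 when a pair was left out.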
